A study of Mus musculus with 12 samples.

Results

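The insulin-like growth factor (IGF) system was examined in TM3 cells exposed to methoxyacetic acid (MAA), through 10 genes: the ligands Igf1 and Igf2, the receptor Igf1r, the IGF binding proteins Igfbp2, Igfbp3, Igfbp4, Igfbp5, Igfbp6 and Igfbp7, and Htra3, a secreted serine protease with an IGFBP-type domain. The gene list was drawn up with earlier results of these data known. It holds Igfbp5 and Htra3, which the study that reported these data places among its early responding genes. It also holds Igfbp3, which that study names as known to respond to MAA. By its methods, each RNA sample was checked before pooling for the responses of Igfbp3, Cyp17a1 and Shbg by quantitative PCR. Counts of called members are therefore a description and no test. Within the list, probes were taken as members when their accession belonged to one of the genes, whatever the values of the probe. This gave 14 of 41174 probes and 10 of 15972 named genes, with a pair of probes each for Igf2, Igfbp4, Igfbp5 and Htra3, which were kept apart. TM3 is an established mouse line of Leydig cells, the testosterone-producing cells of the testis, and MAA is the active metabolite of the solvent ethylene glycol monomethyl ether, a testicular toxicant. MAA was added at 1 mM or at 5 mM, cells were harvested after 3, 8 and 24 h, and all 6 treatments were compared with cells held in medium alone until the same time. RNA pooled from 3 cultures filled each channel of a 2-colour array, and each treatment had 2 arrays, labelled replicates 1 and 2, with the dyes exchanged. With 1 cell line and no other genotype, the data describe this line only, and less RNA per cell cannot be told apart from fewer cells expressing a gene.

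IGF1 and IGF2 are small secreted growth factors related to insulin. Both signal through the IGF1 receptor, a tyrosine kinase that recruits insulin receptor substrates and activates the PI3 kinase and AKT pathway and the RAS and MAP kinase pathway. IGF binding proteins hold most extracellular IGF, carry it, and either keep it from the receptor or release it when cut by proteases, so that the balance of ligands, binding proteins and proteases sets how much free IGF a cell meets. In the testis, IGF1 is known to promote Leydig cell maturation and steroid production, and Leydig cells are themselves a source of IGF1 and of binding proteins.

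All values below are log2 ratios of MAA over control from the same array, unless a channel signal is named, which is the log2 signal of one channel on a scale common to the 12 arrays. The share of probes well above background ran from 62.2% to 69.3% over the MAA channels and from 61.5% to 70.5% over the control channels, and the median log2 ratio of an array lay between -0.13 and 0.15. Control channels of the same dye and time differed between the 1 mM and 5 mM arrays by a median of 0.037 to 0.06 on the log2 scale. Between the 2 replicates of a treatment the median was 0.102 to 0.130. Replicates differ in dye and slide and may differ in control pool, which cannot be told apart. Whether the same control pool served both concentrations is not given in the labels. By the study's methods the dye-swapped array of a treatment held a second, separately prepared pool of MAA-treated cultures, so the spread behind each p-value holds the pool, the array and the dye together, and these cannot be told apart. Whether the control RNA of the swap was also a second pool is not given in the sources used here. Of 10 Leydig cell markers, Star, Cyp17a1, Insl3 and Gata4 were well above background in the control channel on at least 10 of 12 arrays, while Lhcgr, Cyp11a1, Hsd3b1 and Hsd3b6 were so on none, Hsd17b3 on 1 and Nr5a1 on 8. Of 4 Sertoli cell markers, Sox9 and Wt1 were detected by the same rule, and Amh and Fshr were not. Of 4 germ cell markers, Ddx4 was detected, Dazl and Sycp3 were not, and Zbtb16 had no matched probe. The macrophage markers Ptprc and Emr1 were not detected, and Cd68 had no matched probe.

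A probe was called when its unadjusted limma p was under 0.005 and its ratio passed 2-fold at 5 mM or 1.5-fold at 1 mM. All the calls lay in 4 genes. Igfbp5 fell early and was called up at 24 h with 1 mM, and Htra3 fell early at 5 mM on 1 of its 2 probes. Igf2 rose late, and Igfbp3 fell late at 5 mM from signals near background. At 5 mM, 2 of 14 member probes were called down at 3 h, where 1.74% of all probes were, and none up, against 2.02%. At 8 h the count was again 2 down (all probes, 2.49%) and none up (3.06%), and at 24 h 1 was down (1.77%) and 2 were up (3.85%). At 1 mM, 1 was called down at 3 h (all probes, 0.627%) and none up (1.32%), and 2 were called up at 8 h (1.72%) and none down (0.656%). At 24 h with 1 mM, 3 were up (3.26%) and none down (1.41%). The 2 arrays of a treatment agreed less at 1 mM. Over all probes their log2 ratios correlated at r = 0.50, 0.63 and 0.64 at 3, 8 and 24 h with 5 mM. With 1 mM these correlations were -0.13, 0.13 and 0.31. Over the member probes they were 0.84, 0.78 and 0.69 with 5 mM and 0.34, 0.13 and 0.94 with 1 mM. The median over the 14 probes was -0.18, -0.36 and 0.15 at 3, 8 and 24 h with 5 mM, beside -0.10, -0.038 and 0.025 over all probes. With 1 mM it was -0.089, -0.049 and 0.22, beside 0.015, 0.023 and -0.075.

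**Figure D1:**
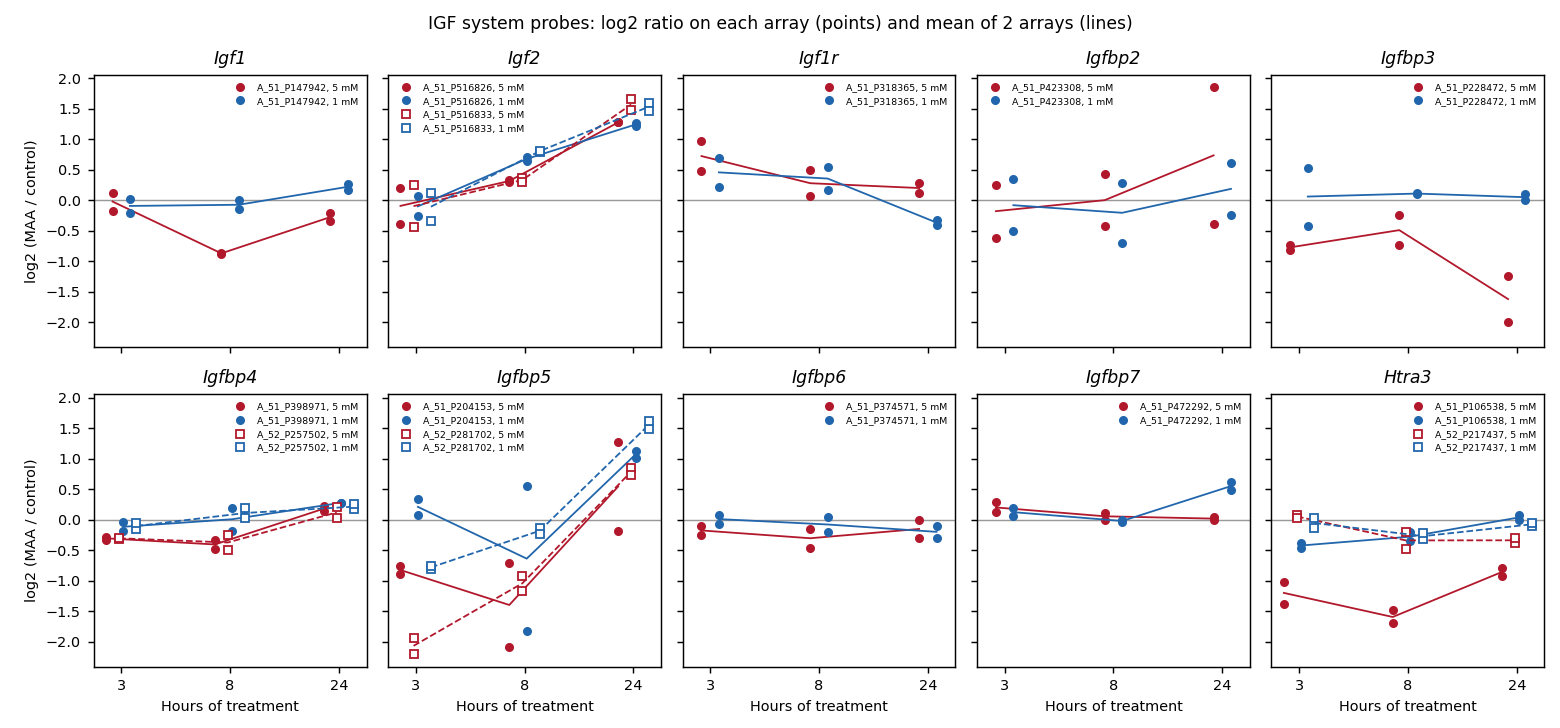
Log2 ratio of MAA over control (y axis) against hours of treatment (x axis, evenly spaced) for the 14 probes of 10 genes, with 5 mM in red and 1 mM in blue. Points are single arrays, lines are means of 2 arrays, and open squares with dashed lines mark the other probe of a gene; Igfbp5 probe A_52_P281702 runs from -2.07 at 3 h to 0.79 at 24 h with 5 mM.

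**Figure D2:**
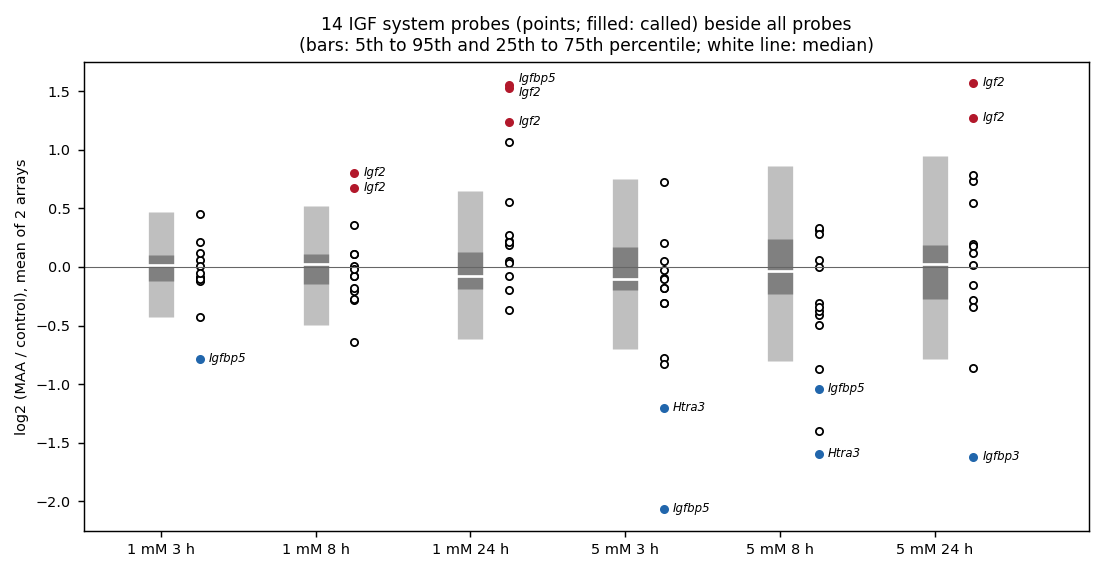
Mean log2 ratio of each of the 14 member probes (circles; filled and named where called, red up and blue down) in the 6 treatments, beside all probes (light bar, 5th to 95th percentile; dark bar, 25th to 75th; white line, median). In every treatment the called probes lie outside the light bar and most of the other member probes lie inside it.

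Igf2, a fetal growth factor, rose at 24 h at both concentrations. Probe A_51_P516826 gave 1.27 and 1.27 on the 2 arrays at 5 mM and 1.22 and 1.26 at 1 mM, means of 1.27 (SE 0.13, adjusted p = 0.000355) and 1.24 (SE 0.13, adjusted p = 0.00197). Probe A_51_P516833 gave 1.66 and 1.47 at 5 mM and 1.59 and 1.47 at 1 mM, that is 2.97-fold and 2.89-fold. All 8 values at 24 h were above every value of the same probes at 3 h and 8 h. At 8 h the rise passed the 1 mM threshold, with 0.71 and 0.64 and a mean of 0.68 (SE 0.13, adjusted p = 0.0317) for A_51_P516826 and 0.79 and 0.81 with a mean of 0.80 for A_51_P516833. At 5 mM and 8 h the same probes stood at 0.33 and 0.30 and at 0.36 and 0.30, and neither was called. The 8 h call at 1 mM was lost for both probes when either 1 mM 8 h array was left out, with limma's unadjusted p between 0.0109 and 0.0179, at ratios from 0.64 to 0.81. At 3 h the arrays of a pair had opposite signs at both concentrations, as in 0.20 and -0.39 for A_51_P516826 at 5 mM, and the means were within 0.11 of 0.

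The channel signals show the course behind these Igf2 ratios. The control signal of A_51_P516826 was 10.99 ± 0.16 (SD, n = 4 channels) at 3 h, 9.27 ± 0.056 at 8 h and 11.36 ± 0.044 at 24 h on the log2 scale, so that untreated cells had a dip at 8 h. In the MAA channel the signal was 9.54 and 9.54 at 8 h and 12.70 and 12.61 at 24 h with 5 mM. Control levels at different times come from different arrays and were not tested. Over the 12 arrays the ratios of the Igf2 probes correlated at r = 0.996 and differed by a mean of 0.14.

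Igf1, the other ligand, was lower at 8 h with 5 mM MAA and at no other treatment by a comparable amount. The arrays gave -0.86 and -0.88, a mean of -0.87 (SE 0.093, adjusted p = 0.000341), which is 1.83-fold and so short of the 2-fold threshold. At 3 h it stood at 0.12 and -0.17 and at 24 h at -0.21 and -0.34. With 1 mM it stayed between -0.21 and 0.27 on all 6 arrays. At 8 h the ratio at 5 mM minus that at 1 mM was -0.80 (SE 0.13, adjusted p = 0.0112), and within the 5 mM series the 8 h ratio minus the 3 h ratio was -0.85 (SE 0.13, adjusted p = 0.0161). The control signal of Igf1 was 10.87 ± 0.10 at 3 h, 12.03 ± 0.059 at 8 h and 12.22 ± 0.024 at 24 h (SD, n = 4 channels), while the 5 mM channel read 10.91 and 10.74, 11.10 and 11.21 and 11.98 and 11.90. The 8 h signal at 5 mM lay between the control signals of 3 and 8 h, and at 24 h it lay closer to the control of its own time than at 8 h.

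**Figure D3:**
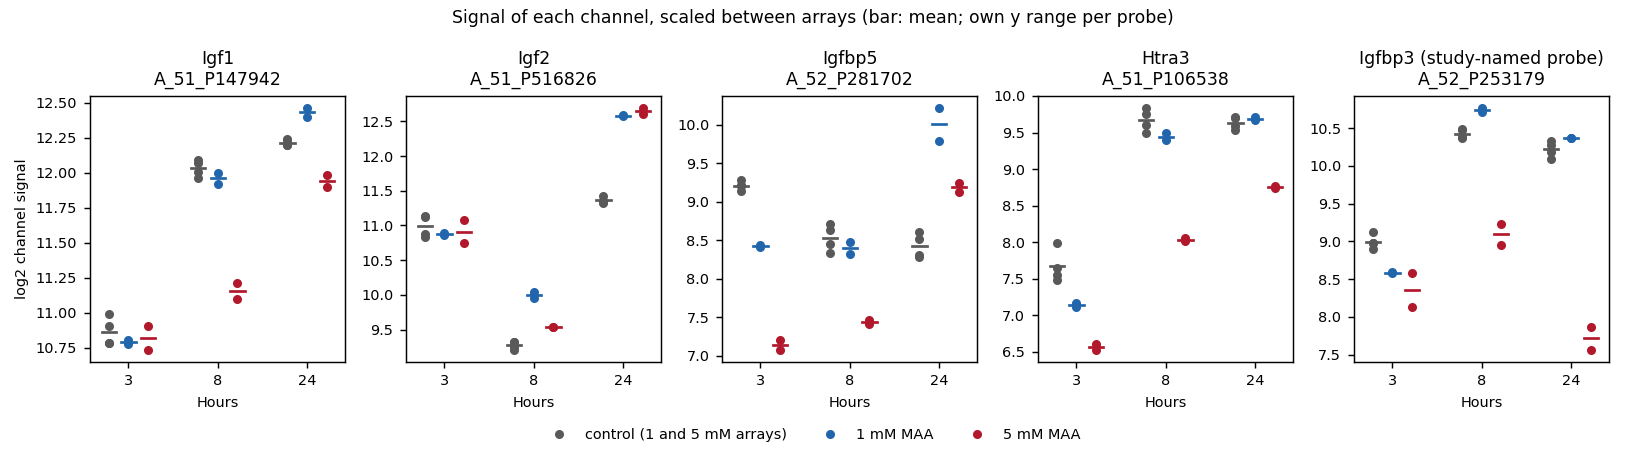
Log2 channel signal (y axis, own range for each probe, arrays brought to a common scale) against hours of treatment for Igf1, Igf2, Igfbp5, Htra3 and the probe the study calls Igfbp3. Grey points are the 4 control channels at a time, blue 1 mM and red 5 mM MAA with 2 channels each, and bars are means; for Htra3 the 5 mM points lie below all control points at each time, and for Igf2 both concentrations lie above them at 24 h.

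Igf1r, which encodes the receptor that both ligands use, was not called at any treatment. Its largest value was at 5 mM and 3 h, where the arrays gave 0.47 and 0.97, a mean of 0.72 (SE 0.17, adjusted p = 0.0193). At 1 mM and 3 h they gave 0.22 and 0.69, with a mean of 0.46, and the first of these treatments missed the call by its fold of 1.65 alone. At 24 h the means were 0.20 at 5 mM and -0.37 at 1 mM, a difference of 0.57 whose 95% interval was -0.0054 to 1.14. The arrays of a pair were up to 0.50 apart at 5 mM and 3 h.

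Igfbp5, a binding protein that attaches to extracellular matrix, had the widest swing of the members, from a fall at 3 h to values above control at 24 h. The swing rests on probe A_52_P281702, a 60-base oligonucleotide, and the fall of Htra3 described further on rests on A_51_P106538; the first 30 bases of each are shown to identify what was hybridised, from the study's gene table.
Igfbp5 A_52_P281702: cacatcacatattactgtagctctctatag
Htra3 A_51_P106538: gctcccaagggcatctttgttctccctagt
At 5 mM the Igfbp5 arrays gave -1.93 and -2.20 at 3 h and -0.92 and -1.16 at 8 h, then 0.84 and 0.73 at 24 h. The means were -2.07 (SE 0.091, adjusted p = 1.86e-05), or 4.19-fold lower, -1.04 (SE 0.091, adjusted p = 0.000133), and 0.79 (SE 0.091, adjusted p = 0.000539), the last 1.73-fold higher and not called. At 1 mM the course was shifted upward: -0.80 and -0.76 at 3 h, -0.13 and -0.23 at 8 h and 1.48 and 1.62 at 24 h. Igfbp5 was thus called down at 3 h (mean -0.78) and up at 24 h with 1 mM, where its mean of 1.55 was 2.93-fold (adjusted p = 0.000211). Both arrays of each pair had the same sign in all 6 treatments.

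The Igfbp5 ratio at 5 mM was below that at 1 mM at all 3 times, with differences of -1.29 at 3 h (adjusted p = 0.00712), -0.86 at 8 h (adjusted p = 0.00767) and -0.76 at 24 h (adjusted p = 0.0133). Within the 5 mM series it climbed by 1.03 from 3 to 8 h (adjusted p = 0.0087) and by 1.83 from 8 to 24 h (adjusted p = 0.00107). The control signal was 9.21 ± 0.061 at 3 h, 8.53 ± 0.17 at 8 h and 8.43 ± 0.16 at 24 h (SD, n = 4 channels), against 7.20 and 7.08, 7.41 and 7.47 and 9.13 and 9.25 in the 5 mM channel. The calls at 5 mM 8 h and 1 mM 3 h depended on the processing: with normexp background correction and loess the mean became -0.83 at 5 mM and 8 h and -0.45 at 1 mM and 3 h, both short of the fold threshold. The other Igfbp5 probe, A_51_P204153, was not well above background in the control channel on any of the 12 arrays and in the MAA channel on 1, and gives no usable level.

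Igfbp3, the main carrier of IGF in the circulation, fell at 24 h with 5 mM on its accession-matched probe, but from signals near background. Probe A_51_P228472 gave -1.24 and -2.0, a mean of -1.62 (SE 0.25, adjusted p = 0.00195). It was well above background on neither array in the MAA channel and on 1 of 2 in the control channel, so the size of the fall was not measured. A bound sets the mean control signal against a floor for the MAA signal. On each array the floor is the higher of the probe's own MAA signal and the lowest signal of any probe well above background. Here that gave 1.49-fold, which is no firm lower limit, since the control signal was well above background on only 1 of 2 arrays. With 1 mM and 24 h the same probe gave 0.10 and -0.001, with both channels above background on both arrays. The ratios of the concentrations at 24 h lay -1.67 apart (5 mM minus 1 mM) on the log2 scale, a value that takes in the 5 mM ratio from near background. The 5 mM call at 24 h was lost with normexp and loess, at -0.25, and without replicate 2, at -1.24. On replicate 2 at 5 mM and 8 h both channels of this probe stood apart, at signals of 5.84 and 6.09 against 3.20 and 3.93 on replicate 1.

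A further pair of probes carries the name Igfbp3 in the study's own table of responding transcripts, but their scanner accessions could not be matched to the gene in the reference. They are given as a description because that table holds responders only. The first 30 of their 60 bases, shown because the brighter one carries the clearest Igfbp3 course, are as follows.
Igfbp3 A_52_P253179: gcagttttccaaaaacacagatttcttttc
Igfbp3 A_52_P851352: ctgtgacacaattcacaattccctatttaa
A_52_P253179 was above background in both channels on all 12 arrays. At 5 mM it read -0.40 and -0.86 at 3 h, -1.41 and -1.15 at 8 h and -2.52 and -2.32 at 24 h, while at 1 mM it read -0.30 and -0.54, 0.28 and 0.24 and 0.095 and 0.049. Its 5 mM ratio became lower at each later time, reaching 5.36-fold below control, and its 1 mM ratio was near 0 at 24 h. The control signal of this probe was 8.99 ± 0.095 at 3 h, 10.43 ± 0.067 at 8 h and 10.22 ± 0.11 at 24 h (SD, n = 4 channels), and the 5 mM signal at 24 h was 7.57 and 7.86. The dim A_52_P851352 was not well above background in the MAA channel of any 5 mM array. The bound described above came to 2.33-fold lower at 8 h and 2.58-fold lower at 24 h. These are no firm lower limits, since a signal above the lowest one detected on an array need not itself be well above background. Over the 12 arrays A_52_P253179 correlated with A_51_P228472 at r = 0.815 and with A_52_P851352 at r = 0.864.

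The remaining binding proteins had no call. Igfbp4, which mostly restrains IGF and is cut by the protease PAPP-A, had values of -0.50 and -0.25 for A_52_P257502 and -0.47 and -0.34 for A_51_P398971 at 5 mM and 8 h, means of -0.37 (SE 0.085, adjusted p = 0.0123) and -0.41 (SE 0.094, adjusted p = 0.0133). At 3 h with 5 mM the values were -0.32 and -0.30 and -0.33 and -0.28 for the same probes, so that all 8 values at 3 and 8 h were below 0. At 24 h all 8 Igfbp4 values of both concentrations were above 0, with means from 0.12 to 0.28. The move from 8 to 24 h at 5 mM was 0.49 (SE 0.12, adjusted p = 0.0463) for A_52_P257502 and 0.59 (SE 0.13, adjusted p = 0.0366) for A_51_P398971, the same direction for both probes. Igfbp7, a secreted relative with low IGF affinity, read 0.48 and 0.62 at 1 mM and 24 h, a mean of 0.55 (SE 0.071, adjusted p = 0.00382) that is 1.46-fold and just under the 1.5-fold threshold. At 5 mM and 24 h it read -0.0058 and 0.04, and the difference between concentrations was -0.53 (SE 0.10, adjusted p = 0.0192). Without replicate 1 of the 1 mM 24 h pair the Igfbp7 value became 0.62 and was called. Igfbp6, which prefers IGF2, had means between -0.30 and 0.0096 over the 6 treatments, and its lowest adjusted p was 0.0853. Igfbp2, a binding protein abundant in fetal tissues and in serum, was well above background on 1 of 12 arrays in the MAA channel and on 4 of 12 in the control channel, and its arrays had opposite signs in all 6 treatments.

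Htra3 fell at 3 and 8 h with 5 mM on probe A_51_P106538. The arrays gave -1.02 and -1.38 at 3 h, -1.70 and -1.49 at 8 h and -0.93 and -0.79 at 24 h. The means were -1.20 (SE 0.10, adjusted p = 0.000164), -1.60 (SE 0.10, adjusted p = 3.52e-05) and -0.86 (SE 0.10, adjusted p = 0.00055), that is 2.3-fold, 3.02-fold and 1.82-fold lower, with the 24 h value short of the threshold. At 1 mM the pairs were -0.38 and -0.47, -0.35 and -0.21 and -0.0082 and 0.082, and none was called. The 5 mM ratio was below the 1 mM ratio at each time, with differences of -0.78 (adjusted p = 0.0322), -1.32 (adjusted p = 0.00267) and -0.90 (adjusted p = 0.0105) at 3, 8 and 24 h. The control signal was 7.67 ± 0.22 at 3 h, 9.68 ± 0.15 at 8 h and 9.63 ± 0.089 at 24 h (SD, n = 4 channels). In the 5 mM channel it was 6.53 and 6.61, 8.06 and 8.01 and 8.77 and 8.74, so that both channels were higher at 8 and 24 h than at 3 h and the treated one lay lower throughout. With normexp and loess the 3 h mean was -0.81, short of 2-fold.

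The other Htra3 probe, A_52_P217437, did not show the fall at 3 h and showed a smaller one at 8 and 24 h. It was above background in both channels on all 12 arrays. It gave 0.071 and 0.035 at 3 h, -0.48 and -0.20 at 8 h and -0.38 and -0.29 at 24 h with 5 mM. The means were 0.053, -0.34 (limma adjusted p = 0.0155) and -0.34 (limma adjusted p = 0.0165), and none was called. Its control signal was 8.03 ± 0.065, 8.05 ± 0.08 and 7.63 ± 0.06 at 3, 8 and 24 h, without the rise after 3 h of the first probe. The ratios of the Htra3 probes correlated at r = 0.272 over the 12 arrays and lay a mean of 0.59 apart. The called fall of Htra3 therefore rests on 1 of its 2 probes.

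Promoter sequence was available for all 10 genes, as 14 windows of 250 bases upstream of a RefSeq transcript start in the assembly GRCm38.p6. Those of Igfbp5 and Htra3 are shown because each gene had a probe called down at 3 and 8 h with 5 mM. The Igfbp3 window is shown because that gene had a probe called down late. Of the 4 windows of Igf2, which rose, the one with the most motif matches is shown. All read 5′ to 3′ on the gene's strand, and capitals mark exact matches, on either strand, to the GC box GGGCGG, the TATA box TATAAA or the CCAAT box CCAAT, which do not overlap one another here.
Igfbp5, chr1:72874866-72875115, minus strand: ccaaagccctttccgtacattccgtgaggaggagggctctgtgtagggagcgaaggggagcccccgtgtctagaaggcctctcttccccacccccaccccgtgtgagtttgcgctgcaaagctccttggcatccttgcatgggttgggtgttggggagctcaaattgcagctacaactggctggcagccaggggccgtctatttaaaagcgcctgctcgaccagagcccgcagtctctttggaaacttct
Htra3, chr5:35679781-35680030, minus strand: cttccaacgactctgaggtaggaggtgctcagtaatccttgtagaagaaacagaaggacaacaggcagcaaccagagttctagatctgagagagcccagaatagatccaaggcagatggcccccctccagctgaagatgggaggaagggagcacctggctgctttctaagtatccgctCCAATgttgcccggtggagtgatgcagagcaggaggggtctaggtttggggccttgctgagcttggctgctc
Igfbp3, chr11:7213924-7214173, minus strand: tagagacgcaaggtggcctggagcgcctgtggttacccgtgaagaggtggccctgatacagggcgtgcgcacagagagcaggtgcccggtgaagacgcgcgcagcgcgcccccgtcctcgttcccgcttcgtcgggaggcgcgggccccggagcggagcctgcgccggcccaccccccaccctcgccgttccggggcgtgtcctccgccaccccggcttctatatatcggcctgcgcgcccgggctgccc
Igf2, chr7:142657497-142657746, minus strand: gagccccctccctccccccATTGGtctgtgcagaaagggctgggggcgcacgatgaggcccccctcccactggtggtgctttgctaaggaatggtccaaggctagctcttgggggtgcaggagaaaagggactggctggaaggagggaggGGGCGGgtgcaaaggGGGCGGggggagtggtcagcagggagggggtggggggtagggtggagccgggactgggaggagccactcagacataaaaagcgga
Of the 14 windows, 5 held the GC box, 2 the TATA box and 4 the CCAAT box, against 32.7%, 12.4% and 33.8% of 32851 such windows in the reference. The windows of Igfbp5 and Igfbp3 held none of them, that of Htra3 held 1 CCAAT box, and the Igf2 window shown held 2 GC boxes and 1 CCAAT box read from the other strand. Of the other Igf2 windows, 2 held none and 1 held 1 GC box. These are matches of letters in a short window and were not tied to the expression values.

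The effect of the concentration and of time was tested on the ratios themselves, with p-values adjusted over all probes. At 3 h, 2 of 14 member probes differed between 5 mM and 1 mM, where 3.4% of all probes did, namely Igfbp5 A_52_P281702 and Htra3 A_51_P106538. At 8 h it was 4 of 14 (all probes, 10.1%), the same pair with Igf1 and Igfbp4 A_52_P257502, the last by -0.48 (SE 0.12, adjusted p = 0.0458). At 24 h it was again 4 of 14 (8.41%), namely Igfbp5, Htra3, Igfbp7 and Igfbp3 A_51_P228472. The 5 mM ratio of the last came from signals near background, which leaves 3 measured above background. All 10 of these differences, the Igfbp3 one included, had the lower ratio at 5 mM. Igfbp5 A_52_P281702 and Htra3 A_51_P106538 account for those at 3 h and recur at 8 and 24 h. The directions over all probes were not counted, here or for the times below, so the one-sided counts have no reference. For Igf2 at 24 h, neither probe differed between concentrations, with 95% intervals of -0.41 to 0.48 and -0.50 to 0.58, which leave room for a difference of up to about these sizes. Within the 5 mM series, 2 of 14 probes differed between 3 and 8 h (all probes, 5.1%), Igf1 going down and Igfbp5 going up. From 8 to 24 h, 7 of 14 differed (8.91%), all 7 upward: Igf1, both Igf2 probes, both Igfbp4 probes, Igfbp5 A_52_P281702 and Htra3 A_51_P106538. From 3 to 24 h, 4 of 14 differed (15.8%), again all upward, with Igfbp5 at 2.86 (adjusted p = 0.00016) and the Igf2 probes at 1.37 and 1.67 (adjusted p = 0.00363 and 0.00365). These counts depended on single arrays. The 3 h count between concentrations went to 0 without replicate 2 at 5 mM 3 h or either 1 mM 3 h array, and to 1 without any one of the arrays of 8 or 24 h. The 8 h count went to 1 without replicate 1 at 1 mM 8 h and to 2 without either 5 mM 8 h array. The 24 h count went to 0 without replicate 2 at 5 mM 24 h or either 1 mM 24 h array, and to 1 without replicate 1 at 5 mM 24 h. From 3 to 8 h it went to 0 without replicate 1 at 5 mM 8 h, and to 1 without replicate 2 there or either 5 mM 3 h array. From 8 to 24 h it went to 1 without any one 5 mM array of those times, and to 4 without either 1 mM 24 h array. Contrasts at one time share the control cells if the control pools were common, and contrasts over time share the 5 mM arrays.

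**Figure D4:**
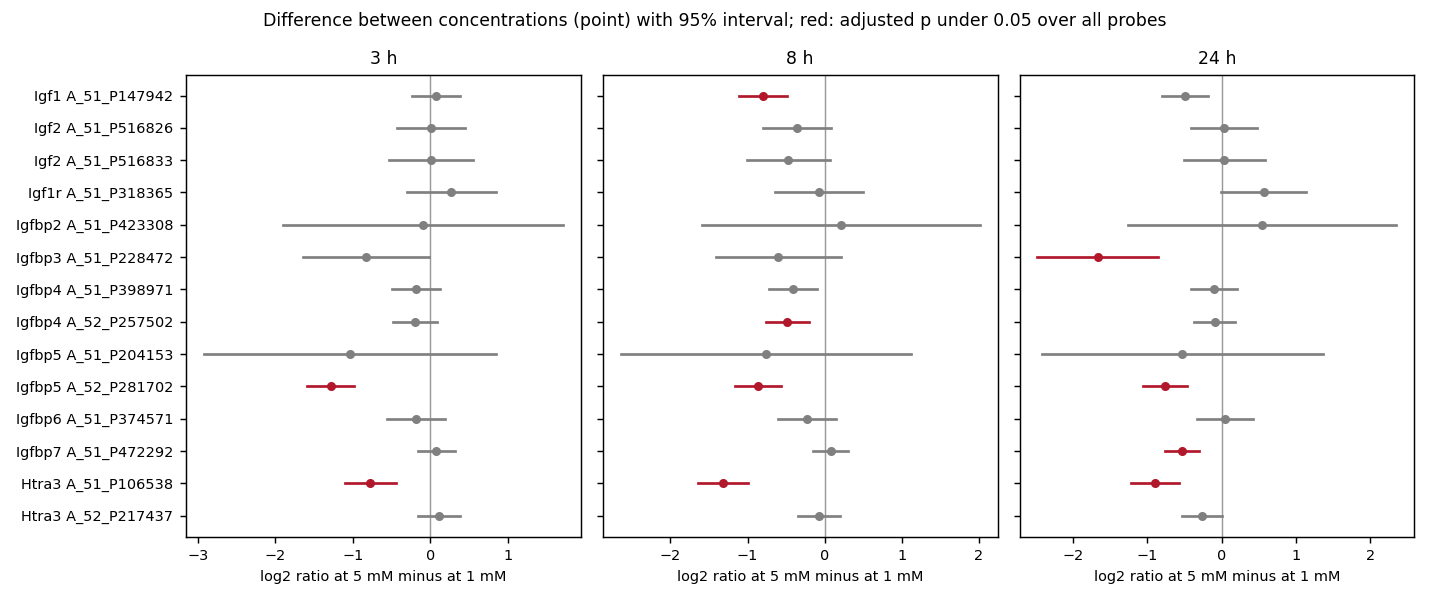
Difference in log2 ratio between 5 mM and 1 mM (x axis) for each member probe (y axis) at 3, 8 and 24 h, with its 95% interval from limma. Red marks an adjusted p under 0.05 over all probes. All 10 red points lie left of 0, and the one of Igfbp3 at 24 h takes in a 5 mM ratio from signals near background. The wide grey intervals are those of Igfbp2 and Igfbp5 A_51_P204153, which were near background.

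In untreated cells several members changed with time in culture, given here as control channel signals (SD, n = 4 channels) and not tested. Besides the rises of Igf1 and of Htra3 A_51_P106538 and the dip of Igf2, Igfbp7 went from 14.74 ± 0.11 at 3 h through 15.34 ± 0.078 to 15.71 ± 0.10 at 24 h, and Igf1r from 10.84 ± 0.34 through 11.07 ± 0.087 to 12.04 ± 0.14. Both Igfbp4 probes were within 0.32 of their 3 h signal throughout. Igfbp6 went from 14.59 ± 0.11 at 3 h to 14.18 ± 0.09 at 24 h. The largest control changes between times, such as 2.01 from 3 to 8 h for Htra3 and 2.09 from 8 to 24 h for Igf2 A_51_P516826, were larger than the MAA ratios of the same probes.

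The genes whose ratios followed Igfbp5 most closely over the 12 arrays, among 15029 named probes above background throughout, were Ctla2a, Lum and Mettl25, with r = 0.981, 0.97 and 0.968. Igfbp5 A_52_P281702 was the member probe with the largest ratio at 5 mM of those bright on all arrays. Lum, which encodes the matrix proteoglycan lumican, had means of -1.54, -0.94 and 1.89 at 5 mM and -0.74, -0.058 and 2.29 at 1 mM, so its sign turned between 8 and 24 h as that of Igfbp5 did. Ctla2a, which encodes a cysteine protease inhibitor, had means of -0.39, -0.16 and 0.80 at 5 mM and of 0.10, 0.26 and 1.32 at 1 mM, above 0 at each time with 1 mM. Mettl25 had means of -1.66, -1.12 and -0.087 at 5 mM and of -0.96, -0.36 and 0.086 at 1 mM, so that at 24 h it lay just below 0 at 5 mM and just above it at 1 mM. The 12 arrays share their dyes in part and may share control pools, and these correlations are a description.

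A pair of lists gave the rest of the pathway: 17 other extracellular genes, of which 14 had a probe (18 probes), and 26 signalling genes, of which 25 had a probe (39 probes). Among the extracellular genes 5 had a called probe in some treatment. At 5 mM the calls in this list were all downward, with 1 probe at 3 h, 2 at 8 h and 3 at 24 h, and at 1 mM 1 was up at 3 h, 1 at 8 h and 1 at 24 h, with 2 down at 24 h. Of all probes, 1.74%, 2.49% and 1.77% were called down at 5 mM at these times, with 1.32%, 1.72% and 3.26% up at 1 mM and 1.41% down at 1 mM and 24 h. Its median log2 ratio lay between -0.12 at 5 mM and 8 h and 0.069 at 1 mM and 24 h, beside -0.038 and -0.075 over all probes. Stc1 and Stc2 encode stanniocalcins, which inhibit the IGFBP protease PAPP-A. Stc1 probe A_51_P233334 gave -1.21 and -1.24 at 8 h and -1.26 and -1.14 at 24 h with 5 mM, and -0.85 and -0.82 at 24 h with 1 mM. Its other probe, A_52_P315733, was called at 3 h with 5 mM (-0.99 and -1.34) and at 24 h with 1 mM (-0.51 and -0.68). Of these 5 genes only Stc1 was called down at both concentrations, and by both of its probes at 1 mM and 24 h. Stc2 gave -1.34 and -1.39 at 24 h with 5 mM, a mean of -1.37 (SE 0.087, adjusted p = 4.64e-05). Igfbp1, a binding protein that insulin represses in liver, was called down at 5 mM but near background. At 8 h its bound was 1.66-fold lower, again no firm limit. At 24 h its mean control signal of 2.91 lay below the lowest signals of probes well above background, so no bound is given. Kazald1 and Htra1 were called up, both at 1 mM only. Kazald1, which encodes an IGFBP-domain protein, gave 0.92 and 0.97 at 3 h and 0.71 and 0.83 at 24 h, and Htra1, a protease related to Htra3, gave 0.78 and 0.67 at 8 h. Kazald1 also stood at a mean of 0.70 at 5 mM and 3 h, and Htra1 at 0.80 at 5 mM and 24 h, where the threshold was 2-fold, and the concentrations were not compared for these genes.

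Among the signalling genes 5 had a called probe. With 5 mM, 4 probes of 2 genes were up at 3 h, 3 probes were up and 1 down at 8 h, and 1 was up at 24 h, while with 1 mM 1 probe each was up at 3 and 8 h and none at 24 h. Of all probes, 2.02%, 3.06% and 3.85% were called up at 3, 8 and 24 h with 5 mM and 2.49% down at 8 h, with 1.32% and 1.72% up at 3 and 8 h with 1 mM. Of the 4 probes up at 5 mM and 3 h, 3 measure the same gene, Pdpk1. The median of the list lay between -0.0024 and 0.055. Socs2, a feedback inhibitor of growth hormone signalling that also binds the IGF1 receptor, accounted for all the 1 mM calls. Its arrays gave 1.05 and 1.34 at 3 h and 1.53 and 1.28 at 8 h with 5 mM, and 0.96 and 1.16 and 1.25 and 0.96 with 1 mM. At 24 h the Socs2 means were -0.036 and 0.21, and neither was called. Pdpk1, the kinase that activates AKT, was called up on 3 probes at 5 mM and 3 h, with means of 1.25, 1.40 and 1.30. Pik3cb, a catalytic subunit of PI3 kinase, gave 1.06 and 1.07 at 5 mM and 8 h, a mean of 1.07 (SE 0.063, adjusted p = 2.96e-05). The other Pik3cb probe, A_52_P581110, had a mean of 0.86 there and was not called. Grb10 and Grb14 are adaptors that restrain insulin and IGF1 receptor signalling, and each had a called probe at 5 mM and 8 h, Grb14 up and Grb10 down. Grb14 gave 1.15 and 1.38 at 8 h and 1.48 and 1.46 at 24 h, with means of 1.27 (SE 0.18, adjusted p = 0.00121) and 1.47 (SE 0.18, adjusted p = 0.000665), while Grb10 probe A_52_P40363 gave -1.10 and -0.95 at 8 h, a mean of -1.02 (SE 0.11, adjusted p = 0.000304). The Grb10 call rests on 1 of its 3 probes, since A_52_P115787 and A_51_P187151 had means of -0.53 and -0.50 and were not called. The other 20 signalling genes, the Irs, Akt and Foxo genes among them, had no called probe.

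**Figure D5:**
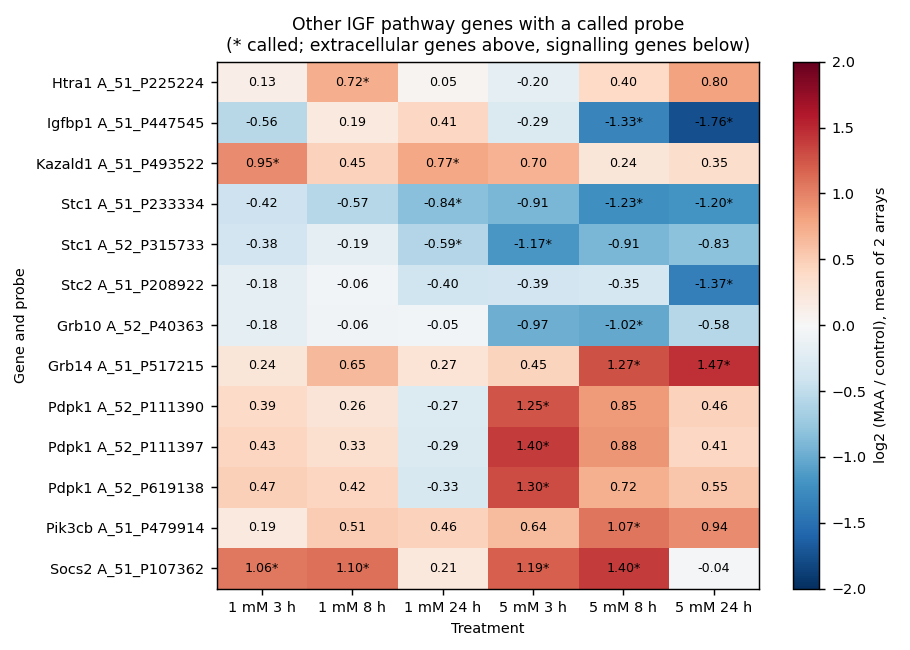
Mean log2 ratio of MAA over control (colour scale and printed value) for the probes of other pathway genes that were called in at least 1 of the 6 treatments (x axis), with the call marked by an asterisk. Extracellular genes are above and signalling genes below; Stc1, Stc2, Igfbp1 and Grb10 are blue at 5 mM, and Grb14, Pdpk1, Pik3cb and Socs2 are red in their called treatments.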

How the data were processed

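Expression was measured on 12 Agilent whole-genome mouse arrays, 2 for each of 6 treatments, on 3 slides of 4. The authors extracted signals with Feature Extraction 9.5.3.1, and the deposited scanner intensity values are background-subtracted and dye-normalised within each array. The deposited series table holds log10 ratios, already turned to MAA over control, and matched the scanner ratios, within a tolerance of 0.0051, for at least 99.998% of spots. Direction came from the dye labels.

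Of 45018 spots, 1639 control spots were left out, and so were 124 to 208 outlier spots an array, marked in either dye, and repeated spots were averaged to 41174 probes. Log2 ratios from the processed signals were fitted in limma 3.58.1 (R 4.3.3) with 1 coefficient for each treatment over all 12 arrays and no centring, and p-values were adjusted over all probes by Benjamini-Hochberg. Intervals are 95%. Single-channel signals were scaled between arrays by the Aquantile method. Scanner gene names are accessions, so members were found through RefSeq accessions (assembly GRCm38.p6), which named 22072 probes. Every member probe was named; of other pathway genes those with a called probe; and the 3 genes most correlated with the member probe of largest ratio. Members and gene lists were chosen with earlier results of these data known. The fit was tested on simulated data. Alternatives were normexp with an offset of 50 and loess, the deposited table, median centring, no dim probes, outlier spots kept, replicate or slide blocks, 1 concentration at a time, each array left out, and adjusted p. Figures were drawn with matplotlib 3.10.9.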

Additional observations from a re-analysis of the deposited data

Results flagged for a closer look

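The MAA over control ratio of a member probe differed between the concentrations, or between times at 5 mM, in 23 of 84 limma contrasts at an adjusted p under 0.05 over all probes, for 9 probes of 7 genes. Over all probes the share that differed was 3.4%, 10.1% and 8.41% between concentrations at 3, 8 and 24 h, and 5.1%, 8.91% and 15.8% from 3 to 8, 8 to 24 and 3 to 24 h. With 1 array left out, the counts of member probes fell as low as 0 for the concentrations at 3 and 24 h and for 3 to 8 h, and as low as 1 for the concentrations at 8 h and for 8 to 24 h. Differences are log2 ratio at 5 mM minus 1 mM, or later minus earlier time at 5 mM. Igf1 A_51_P147942 shifted by -0.80 between 5 and 1 mM at 8 h, -0.85 from 3 to 8 h and 0.59 from 8 to 24 h. Igf2 A_51_P516826 had differences of 0.96 from 8 to 24 h and 1.37 from 3 to 24 h. Igf2 A_51_P516833 changed by 1.24 from 8 to 24 h and 1.67 from 3 to 24 h. Igfbp3 A_51_P228472 gave -1.67 between 5 and 1 mM at 24 h. Igfbp4 A_51_P398971 shifted by 0.59 from 8 to 24 h and 0.48 from 3 to 24 h. Igfbp4 A_52_P257502 had differences of -0.48 between 5 and 1 mM at 8 h and 0.49 from 8 to 24 h. Igfbp5 A_52_P281702 changed by -1.29 between 5 and 1 mM at 3 h, -0.86 between 5 and 1 mM at 8 h, -0.76 between 5 and 1 mM at 24 h, 1.03 from 3 to 8 h, 1.83 from 8 to 24 h and 2.86 from 3 to 24 h. Igfbp7 A_51_P472292 gave -0.53 between 5 and 1 mM at 24 h. Htra3 A_51_P106538 shifted by -0.78 between 5 and 1 mM at 3 h, -1.32 between 5 and 1 mM at 8 h, -0.90 between 5 and 1 mM at 24 h and 0.74 from 8 to 24 h. The Igfbp3 difference takes in a 5 mM ratio whose size was not measured, since the MAA signal was not well above background. With 2 arrays a treatment, no single array was tested as an outlier.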

How the results depend on the processing

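No called value of a member probe changed sign under any alternative run. Of the alternatives that kept all arrays of a treatment, 4 values lost their call and 738 kept their side of the threshold. Most of the 738 were never called, so they do not measure how stable the calls were. The main fit called 2, 2 and 3 member probes at 3, 8 and 24 h with 5 mM. It called 1, 2 and 3 with 1 mM, and the 4 losses are set against these. All 4 were lost under normexp and loess, which changed the background correction, the offset and the normalisation together. With dim probes left out, Igfbp3 A_51_P228472 was not in the fit at 5 mM 24 h, so that 0 member probes were called down there, against 1. Under normexp and loess the number of member probes called was 1 at 5 mM 3 h, 1 at 5 mM 8 h and 0 at 1 mM 3 h, and 2 differed between concentrations at 24 h. All probes called down fell too, from 715 to 245 at 5 mM 3 h and from 1025 to 494 at 5 mM 8 h. At 1 mM 3 h all probes called fell from 258 to 57 down and from 545 to 60 up. With each array centred on its median, 1 probe differed between concentrations at 3 h and 2 at 24 h, 1 from 3 to 8 h and 3 from 8 to 24 h; at 5 mM 3 h it moved the all-probe median from -0.10 to 0.0061 and the calls to 1110 up and 539 down, from 832 and 715. With the slide as a block, 1 differed between concentrations at 3 h. With only the 6 arrays at 5 mM, 0 differed from 3 to 8 h and 1 from 8 to 24 h, with fewer arrays to estimate the spread. The cause of the shifts was not tested. Adding the pair of probes the study calls Igfbp3, an alternative chosen after seeing the data, gave 4 called at 5 mM 8 h and 5 at 5 mM 24 h.

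Leaving out each of the 12 arrays in turn, with a lone array assumed to vary like the others, gave 2 to 2, 1 to 2 and 2 to 3 calls at 5 mM and 3, 8 and 24 h, and 1 to 1, 0 to 2 and 3 to 4 at 1 mM. Probes differing between concentrations numbered 0 to 2, 1 to 3 and 0 to 4 at 3, 8 and 24 h, and those differing over time 0 to 2 (3 to 8 h), 1 to 5 (8 to 24 h) and 3 to 5 (3 to 24 h). Igfbp5 at 5 mM 8 h went to -0.92, short of 2-fold, without replicate 2 of that pair. The 0 calls at 1 mM 8 h came without either array of that pair. The replicate number is the dye orientation, and the deviations of same-numbered arrays from their treatment mean correlated at 0.075 to 0.51, over 0.1 in 14 of 15 pairs. With it as a replicate block, 2, 2 and 3 member probes were called at 5 mM and 1, 2 and 3 at 1 mM, as without it. Matching by gene symbol in the scanner files could not be run, since those files name probes by accession. The 2 arrays a treatment limit the precision, and signals near background give bounds at most.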
